A study of Schizosaccharomyces pombe with 4 samples.

Results

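The left arm interior of chromosome 1 is the long stretch of the largest fission yeast chromosome between the region near its left telomere and its centromere. Its members were all array probes of chromosome 1 at design positions 700001 to 3650000, chosen by position and not by signal. They numbered 9776 of the 41551 probes on the array, or 23.5%, over 2950 kb, and 1468 of the 6266 windows of 2 kb that held at least 3 usable probes. Coordinates follow the design of the array and are counted from 1. The genome build of that design is not given in the sources used here, so no gene was placed on the arm.

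The series mapped newly made DNA in Schizosaccharomyces pombe by bromodeoxyuridine (BrdU), which cells build in where thymidine belongs, on 4 Agilent 60-mer tiling arrays. Each array set immunoprecipitated DNA (Cy5) against whole-cell extract DNA, the input (Cy3), of the same cells. There were 2 wild-type arrays and 2 arrays labelled fft3Δ, 1 of each group in series 1 and 1 in series 2. The series title concerns the Snf2-family remodeller Fft3 in heterochromatin inheritance and in genome replication.

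All 4 samples, wild type included, carried cdc25-22, which makes the phosphatase that triggers entry into mitosis fail in the heat. All carried the modules Pnmt1-TK, a thymidine kinase driven by the nmt1 promoter, and Padh1-hENT, a human nucleoside transporter driven by the adh1 promoter, which together let yeast cells take up and use BrdU. Cells were arrested at 37 °C for 4 h and 15 min and released at 26 °C into 10 mM hydroxyurea and 200 µM BrdU. They were collected at 120 min, per the labels, at the peak of septation, and fixed with azide. By their labels, the fft3Δ samples differed from wild type only in the genotype, cdc25-22 fft3_delta. Nothing in the labels tells whether each series had cultures of its own. The p-values here measure only the spread between these arrays, which may be technical.

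As background, DNA replication starts at origins, which in fission yeast lie in AT-rich stretches between genes and are used in only a part of the cells in each cycle. Hydroxyurea starves replication forks of deoxynucleotides, so that forks from origins that start early travel a short way and stall, while origins that start late are held back by the replication checkpoint. BrdU taken up in hydroxyurea therefore marks DNA close to early and efficient origins. A chromosome arm read in this way shows high ground where early origins are crowded and low ground where origins are late, weak or far apart. Below, "early" and "late" are names for DNA of high and low BrdU ratio, since the time of replication itself was not measured.

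The arm was read densely and evenly. Its probes had a median spacing of 300 bp, the widest gap was 3600 bp, and the median window held 7 probes. The non-uniformity flag left out 124 probes, 7 of 1475 possible windows were lost, and no probe of the arm was saturated or dim on all arrays. Over all chromosomes that flag marked 617 probes on wild-type array 2. It marked 4 on wild-type array 1 and 7 and 4 on labelled fft3Δ arrays 1 and 2. The Cy3 signal stood 17.0 to 215 times over background and the Cy5 signal 44.3 to 1094 times, both highest on wild-type array 2. Wild-type array 2 stood apart in its input: over the arm's windows it correlated with the other inputs at r = 0.65 to 0.70, against 0.96 to 0.98 among those. Array 1 of each group shared a slide and a scanner, while array 2 of each group shared only a scanner. A check for missing input signal over 12 neighbouring probes, the length of fft3 (3611 bp), found 0 of 40606 runs below -1 on the log2 scale in both series. The deletion was thus not seen on the arrays, and the second group is called labelled fft3Δ throughout.

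All values are log2 ratios of Cy5 to Cy3, centred on each array's median probe, so 0 is the level of the median probe on that array and not an absence of BrdU. The mean level of the arm was -0.10 and -0.08 on wild-type arrays 1 and 2 and -0.10 on both labelled fft3Δ arrays. The mean of the arm thus lay slightly under the array median in both genotypes. Its median window was nearer, at -0.017 and -0.026 in wild type and -0.021 and -0.012 in labelled fft3Δ. The genotype difference in the mean was -0.0069 (exact permutation p = 0.667, two-sided, where 2 arrays against 2 cannot go below 0.33). The arm minus the interior of the right arm of chromosome 1 gave 0.007, -0.033, 0.016 and 0.021 on wild-type arrays 1 and 2 and labelled fft3Δ arrays 1 and 2. Its mean of 0.003 had an exact sign-flip permutation p of 0.875 (two-sided, smallest possible 0.125), so no difference in mean level between the left and right interior was shown.

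The windows of the arm spread widely around that mean. Their SD was 0.61 and 0.57 on wild-type arrays 1 and 2 and 0.60 and 0.57 on labelled fft3Δ arrays 1 and 2. Windows above 0.5 made up 16.9% and 15.4% in wild type and 17.0% and 13.6% in labelled fft3Δ. Windows below -1 made up 8.24% and 7.36% in wild type and 6.95% and 7.97% in labelled fft3Δ. The lowest window reached -2.35 and -2.04 in wild type and -2.40 and -2.31 in labelled fft3Δ, and the highest 1.19 and 1.34 in wild type and 1.34 and 1.45 in labelled fft3Δ. On every array the ground thus ran further below the median than it rose above it.

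The relief of the arm was almost the same on all 4 arrays. Across its windows, wild-type array 1 correlated at r = 0.97 with labelled fft3Δ array 2 and at 0.94 with labelled fft3Δ array 1, and the 2 labelled fft3Δ arrays correlated at 0.95. The 2 wild-type arrays correlated at 0.91, below all of these, and the lowest value was 0.84, for wild-type array 2 with labelled fft3Δ array 1. These correlations are descriptions over 1468 windows that share their probes and are not independent. The order of likeness thus did not follow the genotype, and the 2 lowest values both involve wild-type array 2.

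**Figure D1:**
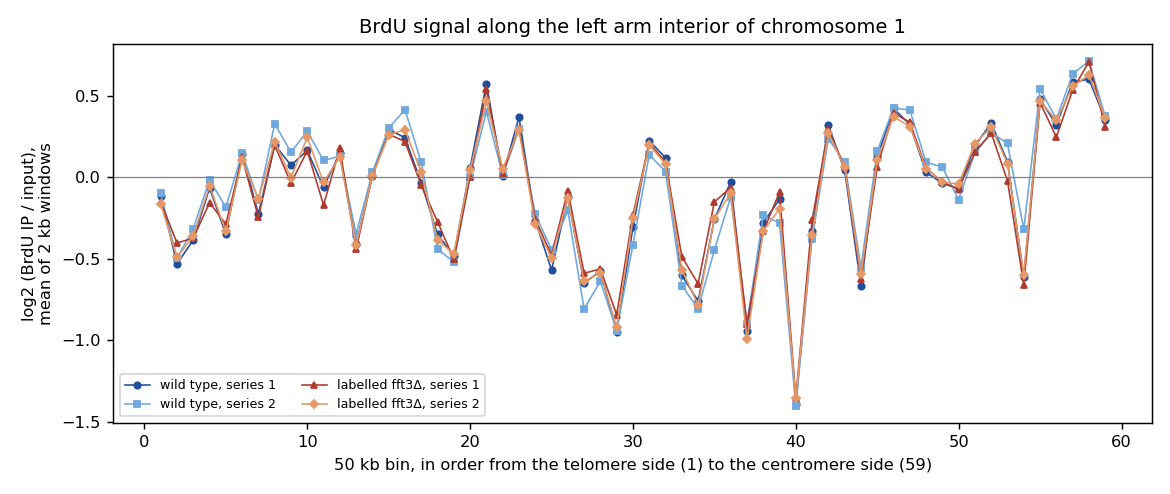
Mean log2 ratio of BrdU-immunoprecipitated over input DNA (y axis) in each of the 59 bins of 50 kb (x axis, in order from the telomere side to the centromere side), with 1 line per array. The lines of the 4 arrays follow each other through the low middle of the arm, the lowest bin (number 40, -1.37 on average) and the high bins next to the centromere side.

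In bins of 50 kb the arm fell into high and low ground in a fixed order. Of the 59 bins, 26 were above 0 on all 4 arrays, 28 were below 0 on all 4 and 5 were mixed. The highest and lowest bins differed by 2.04 on the log2 scale, whereas the median size of the genotype difference was 0.040 and the differences ran from -0.16 to 0.15. The place of the zero line depends on the centring. When arrays were centred on the mode of their ratios, which lowered every level by 0.22, 9 bins were positive and 37 negative on all arrays.

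The lowest bin, 2650001 to 2700000, had -1.39 and -1.40 on wild-type arrays 1 and 2 and -1.35 and -1.36 on labelled fft3Δ arrays 1 and 2. Next came 2500001 to 2550000, with -0.95 and -0.90 in wild type and -0.90 and -0.99 in labelled fft3Δ. The bin 2100001 to 2150000 had -0.95 and -0.94 in wild type and -0.84 and -0.92 in labelled fft3Δ. All 3 lie in the middle of the arm, and the lowest stood 0.44 under the next one.

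The highest bin, 3550001 to 3600000, had 0.60 and 0.71 on wild-type arrays 1 and 2 and 0.71 and 0.63 on labelled fft3Δ arrays 1 and 2. Its neighbour, 3500001 to 3550000, had 0.58 and 0.63 in wild type and 0.53 and 0.56 in labelled fft3Δ. The bin 1700001 to 1750000, the third highest, had 0.57 and 0.40 in wild type and 0.54 and 0.47 in labelled fft3Δ. The highest ground of the arm was thus on its centromere side, and the groups overlapped in the highest and the third highest bin.

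A coarser view showed the same form. The first 500 kb of the arm had a mean of -0.09 over the 4 arrays, the next 500 kb -0.05, and the stretches from 1700001 to 2200000 and from 2200001 to 2700000 had -0.25 and -0.42. From 2700001 to 3200000 the mean was back at 0.02, and the last 450 kb had 0.27. These 6 stretches held 10, 10, 6, 2, 11 and 26 of the arm's 65 peaks, described below. The 2 stretches of lowest mean thus held the fewest peaks, and the last stretch alone held 26 of 65.

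Blocks of early and late DNA were set on the mean of the 4 arrays, as runs of at least 20 kb in the upper or the lower tertile of a running mean over 22 kb. They were chosen from the signal, so their levels are descriptions with no test. There were 16 early blocks, 852 kb in all or 28.9% of the arm, with a median length of 37 kb and a range of 22 to 130 kb. There were 16 late blocks, 900 kb in all or 30.5% of the arm, with a median of 42 kb and a range of 20 to 178 kb. Each of the 32 blocks kept its sign on all 4 arrays, and did so also with loess normalization, with the Cy5 signal alone, with normexp background correction and with centring on the mode.

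Early blocks had mean levels between 0.31 and 0.63 and late blocks between -1.04 and -0.43. Windows in early blocks exceeded those in late blocks by 1.25 and 1.16 on wild-type arrays 1 and 2 and by 1.19 on both labelled fft3Δ arrays, which is a mean of 2.29-fold in the ratio of BrdU DNA to input. The contrast between early and late DNA differed between genotypes by -0.016 (exact permutation p = 1, two-sided), against an SD of 0.060 between the wild-type arrays. It was -0.059 in series 1 and 0.026 in series 2, so its sign was not the same in both. The SD over windows differed by -0.004 (exact permutation p = 1, two-sided). No change in the contrast of the arm was thus shown in labelled fft3Δ.

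The longest early block, 3484001 to 3614000, covered 130 kb and held 10 peaks. Its level was 0.55 and 0.60 on wild-type arrays 1 and 2 and 0.57 and 0.55 on labelled fft3Δ arrays 1 and 2. The early block from 2932001 to 3034000 was nearly as long, at 102 kb, but held 3 peaks and lay lower, at 0.40 and 0.44 in wild type and 0.41 and 0.37 in labelled fft3Δ. The block from 3232001 to 3330000 (98 kb, 7 peaks) had 0.45 and 0.37 in wild type and 0.38 and 0.42 in labelled fft3Δ. The block from 3392001 to 3468000 (76 kb, 6 peaks) had 0.48 and 0.51 in wild type and 0.45 and 0.47 in labelled fft3Δ. All 4 longest early blocks lie on the centromere side of the arm, and the late block that holds the second deepest valley lies between the last named of them and the one from 3232001.

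The longest late block, 1996001 to 2174000, covered 178 kb without a peak. Its level was -0.73 and -0.79 on wild-type arrays 1 and 2 and -0.67 and -0.72 on labelled fft3Δ arrays 1 and 2. Both labelled arrays lay above both wild-type arrays there, by 0.065 on average. The next longest, 1874001 to 1964000 (90 kb), had -0.62 and -0.52 in wild type and -0.51 and -0.56 in labelled fft3Δ. The late block from 2628001 to 2714000 (86 kb) was the lowest of all, at -1.03 and -1.09 in wild type and -0.99 and -1.04 in labelled fft3Δ. The block from 1584001 to 1654000 (70 kb) had -0.54 and -0.57 in wild type and -0.53 and -0.54 in labelled fft3Δ. A short gap parts the 2 longest late blocks, so that late DNA took up most of the ground from 1874001 to 2174000.

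The late block with the largest genotype difference was the one from 3336001 to 3382000, with -1.03 and -0.60 on wild-type arrays 1 and 2 and -1.12 and -0.996 on labelled fft3Δ arrays 1 and 2. The difference of -0.24 rested on wild-type array 2, whose value of -0.60 stood apart from the other 3. Within the blocks as a whole the genotype differences ran from -0.054 to 0.062 in early blocks and from -0.24 to 0.10 in late blocks.

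Peaks are the places where BrdU uptake is highest over a short distance and are read as candidate early origins. A peak was a probe that no other exceeded within 5 kb to either side, on the mean of the 4 arrays smoothed within 500 bp, and that stood above a threshold of 0.74, which is 1 background SD (0.72) over the median. Of 310 such peaks on the 3 chromosomes, 65 lay on the arm, or 22.0 per Mb, against 26.4 per Mb in the interior of the right arm and 27.5 per Mb in a stretch of the left arm of chromosome 2. The densities were not compared by a test. At 2 background SDs, 12 peaks were left in all and 2 on the arm, so most peaks stood between 1 and 2 background SDs over the median.

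The peaks were crowded in early ground. Early blocks held 53 of them, or 62.2 per Mb, late blocks held 1, and 11 lay between blocks. Both peaks and blocks were drawn from the same signal, so this is a description and not a finding. The median spacing was 16.8 kb. Of 64 spacings between neighbours on the arm, 21 were under 10 kb and 7 were over 100 kb, with a shortest of 5.1 kb and a longest of 483.9 kb.

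Peak heights had a median of 0.89 and ran from 0.74 to 1.53. All 65 peaks were above 0 on each of the 4 arrays. Called on each array alone, however, 45 and 44 of them were found within 1 kb on wild-type arrays 1 and 2 and 26 and 43 on labelled fft3Δ arrays 1 and 2. There were 31 found on at least 3 arrays, 7 on all 4 and 1 on none. Labelled fft3Δ array 1 found the fewest of these peaks. Called alone, wild-type arrays 1 and 2 had 80 and 94 peaks on the arm and labelled fft3Δ arrays 1 and 2 had 76 and 64. Each array had its own threshold, between 0.73 and 0.79. Whether a miss came from a summit placed elsewhere or from a signal under that threshold was not tested. Just under the threshold were local maxima at 849001 and 3027901, with heights of 0.73 each, and just above it were peaks at 2757601 and 3522601, with 0.74 and 0.75.

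**Figure D2:**
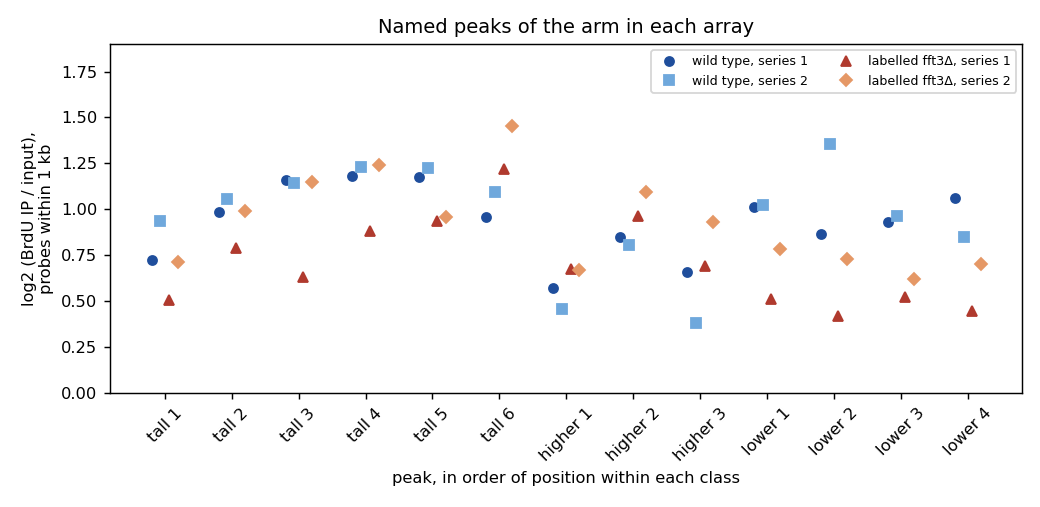
Log2 ratio of BrdU-immunoprecipitated over input DNA, as the mean of the probes within 1 kb of the summit (y axis), for the tallest peaks of the arm and for those with the largest positive or negative genotype difference by moderated t (x axis), with 1 symbol per array. In order of position, tall 1 to 6 are the peaks at 1858201, 3409501, 3500701, 3537901, 3572101 and 3579001, higher 1 to 3 those at 1725001, 3300001 and 3461701, and lower 1 to 4 those at 962101, 1076401, 1481101 and 3307501. The peak at 3579001 also had the largest positive difference and is drawn once. At the 4 peaks of lower signal both labelled fft3Δ arrays lie under both wild-type arrays.

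The tallest peak of the arm was at 3537901, in the longest early block. Within 1 kb of it the ratio was 1.18 and 1.23 on wild-type arrays 1 and 2 and 0.88 and 1.24 on labelled fft3Δ arrays 1 and 2. It was called on all 4 arrays alone. The second, at 3579001, had 0.96 and 1.09 in wild type and 1.22 and 1.45 in labelled fft3Δ, and it was also the peak with the largest positive genotype difference. The peaks at 3572101 and 3500701 stand in the same block, so that 4 of the 6 tallest peaks of the arm lie in those 130 kb. On arrays called alone, the peaks at 3579001, 3572101 and 3500701 were found on 2, 3 and 1 of the 4.

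The peak at 3572101 had 1.18 and 1.22 on wild-type arrays 1 and 2 and 0.94 and 0.96 on labelled fft3Δ arrays 1 and 2. It lies 6.9 kb from the peak at 3579001, and the genotype difference was -0.25 at the first and 0.31 at the second. The peak at 3500701 had 1.16 and 1.14 in wild type and 0.63 and 1.15 in labelled fft3Δ, where array 1 alone was low. The peak at 3409501 had 0.98 and 1.06 in wild type and 0.79 and 0.99 in labelled fft3Δ. The last of the 6, at 1858201, is the only one of them outside the last 450 kb of the arm and lies in no block. It had 0.72 and 0.94 in wild type and 0.51 and 0.71 in labelled fft3Δ, and it is the last peak before 400.5 kb without one.

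**Figure D3:**
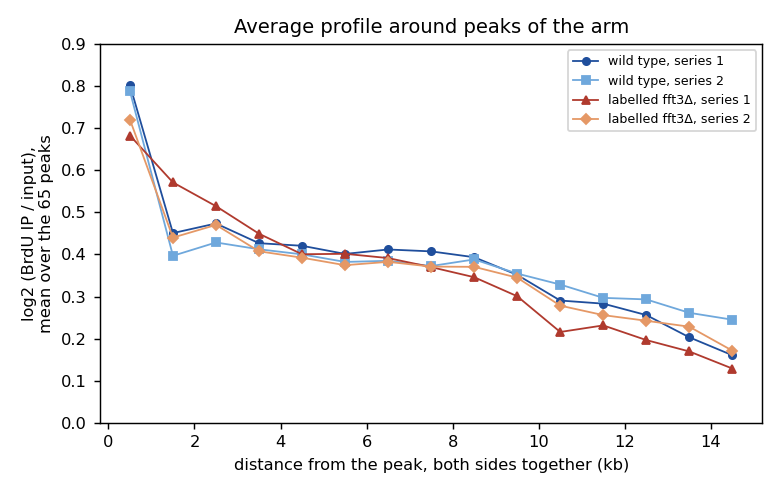
Mean log2 ratio of BrdU-immunoprecipitated over input DNA over the 65 peaks (y axis) against the distance from the summit in steps of 1 kb, both sides together (x axis), with 1 line per array. The mean of the 4 arrays drops from 0.75 within 1 kb to 0.47 at 1 to 2 kb, runs nearly flat to 0.37 at 8 to 9 kb, and reaches 0.18 at 14 to 15 kb.

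Peaks of the arm were sharp summits on broad high ground. The mean ratio over all 65 was 0.75 within 1 kb of the summit, 0.47 at 1 to 2 kb and 0.40 at 4 to 5 kb. It was still 0.18 at 14 to 15 kb, above the mean of the arm. Within 1 kb the ratio was 0.80 and 0.79 on wild-type arrays 1 and 2 and 0.68 and 0.72 on labelled fft3Δ arrays 1 and 2. At 1 to 2 kb it was 0.45 and 0.40 in wild type and 0.57 and 0.44 in labelled fft3Δ. Summits were chosen on the mean of the 4 arrays, so their excess over the next kilobase is partly set by that choice. Since 21 spacings are under 10 kb, the profile beyond a few kilobases also takes in neighbouring peaks, and it is not a length of BrdU tracts.

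Within 1 kb of the chosen summits, the median peak of the arm was lower in the arrays labelled fft3Δ. It had 0.82 and 0.80 on wild-type arrays 1 and 2 and 0.67 and 0.69 on labelled fft3Δ arrays 1 and 2. The difference of -0.131 had the same sign in series 1 (-0.15) and series 2 (-0.11), and both labelled arrays lay under both wild-type arrays (exact permutation p = 0.33, two-sided, the smallest possible). It turned to 0.27 when the Cy5 signal alone was used, and to 0.083 over the 2 peaks left at 2 background SDs. It was -0.306 with normexp background correction and -0.219 with centring on the mode. The median Cy5 signal at the peaks was 1.34 and 0.73 on wild-type arrays 1 and 2 and 1.29 and 1.32 in labelled fft3Δ. The positive Cy5 difference thus rested on wild-type array 2, while wild-type array 1 lay above both labelled arrays. The median input at the peaks was 0.38 and -0.04 on wild-type arrays 1 and 2 and 0.49 on both labelled fft3Δ arrays. Input was thus higher on both labelled arrays, but the 2 wild-type arrays lay further apart in input than in ratio. Its part in the result was not tested. Further from the summit the mean over the 65 peaks did not keep this sign. The genotype difference of that mean was -0.094 within 1 kb, 0.082 at 1 to 2 kb and 0.041 at 2 to 3 kb. Called on the mean of each group, 54 of the 65 peaks were found within 1 kb in wild type and 37 in labelled fft3Δ. The part of summit placement in the lower values was not tested.

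By peak, 46 of 65 were lower and 19 higher in labelled fft3Δ, and 200 of all 310 were lower. The median of the differences was -0.113 on the arm and -0.077 over all 310 peaks. Values close to the summits were thus lower over the whole array too. At 29 peaks (44.6%) both labelled arrays lay under both wild-type arrays, where 28.7% of all 310 peaks did so. At 5 peaks (7.69%) they lay above, where 12.6% of all peaks did so. In limma with Benjamini-Hochberg adjustment over the 310 peaks, 0 peaks of the arm passed an adjusted p of 0.05, as did 0% of all peaks, and the lowest adjusted p on the arm was 0.515. At an unadjusted p of 0.05, 7 peaks were lower (10.8%, against 5.48% of all) and 1 was higher (1.54%, against 2.26%). With the Cy5 signal alone the difference was positive at 60 of the 65 peaks, where the median Cy5 signal was low on wild-type array 2 alone. With the series as a block, which is also the scanner, 1 peak of the arm passed, at 1076401, with lower signal (1.54%, against 1.61% of all peaks). Without wild-type array 1, wild type rested on wild-type array 2 alone, the array whose input stood apart. The differences at 1076401 and 1469401 were then -0.78 and -0.68.

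The peak at 1076401, in an early block of 36 kb, had the largest negative difference. It had 0.86 and 1.36 on wild-type arrays 1 and 2 and 0.42 and 0.73 on labelled fft3Δ arrays 1 and 2. The groups did not overlap, and the labelled array was lower in each series, with a difference of -0.44 in series 1 and -0.63 in series 2. The difference of -0.54 (SE 0.18) had an adjusted p of 0.515 with genotype alone and 0.017 with the series as a block (both limma). It was -0.29 without wild-type array 2, 0.14 with the Cy5 signal alone and -0.97 with normexp background correction. The Cy5 signal there was 1.72 and 0.97 in wild type and 1.52 and 1.45 in labelled fft3Δ.

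The next 3 negative differences by moderated t were smaller and also did not pass (adjusted p = 0.515 each, limma). The peak at 1481101 had 0.93 and 0.96 in wild type and 0.52 and 0.62 in labelled fft3Δ, a difference of -0.38. The peak at 962101 had 1.01 and 1.02 in wild type and 0.51 and 0.78 in labelled fft3Δ, a difference of -0.37. The peak at 3307501 had 1.06 and 0.85 in wild type and 0.45 and 0.70 in labelled fft3Δ, a difference of -0.38. In all 3 the groups did not overlap. With the Cy5 signal alone the difference at 1481101 was -0.046 and those at 962101 and 3307501 turned to 0.17 and 0.09, and without labelled fft3Δ array 1 the last 2 were -0.24 and -0.26. With normexp background correction the 3 differences were between -0.66 and -0.61.

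The 4 largest positive differences by moderated t did not pass either (adjusted p between 0.590 and 0.714, limma). At the peak at 3579001 the difference was 0.31 (SE 0.14), with 0.19 without labelled fft3Δ array 2 and 0.03 with normexp background correction. The peak at 3461701 had 0.66 and 0.38 on wild-type arrays 1 and 2 and 0.69 and 0.93 on labelled fft3Δ arrays 1 and 2. Its difference of 0.29 came almost wholly from series 2, with 0.03 in series 1 and 0.55 in series 2, and it was 0.15 without wild-type array 2 and 0.17 without labelled fft3Δ array 2. The peak at 3300001 had 0.85 and 0.81 in wild type and 0.96 and 1.09 in labelled fft3Δ, and the peak at 1725001 had 0.57 and 0.46 in wild type and 0.67 in both labelled arrays. The differences of 0.20 and 0.16 at these last peaks were 0.13 without labelled fft3Δ array 2 and 0.10 without wild-type array 2, and turned to -0.0094 and -0.019 with normexp background correction.

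The peaks at 3300001 and 3307501 are 7.5 kb apart in the same early block, with differences of 0.20 and -0.38. With the pair at 3572101 and 3579001 this makes 2 places where neighbouring peaks differed in opposite directions. Both pairs were picked out after their values were seen, and no test was made of the contrast within a pair.

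Origin-like peaks were missing over long ground in the middle of the arm. No peak lay between 2267101 and 2751001, 483.9 kb, which was the second longest of 307 spacings between neighbouring peaks on the 3 chromosomes. The mean level there was -0.49 and -0.54 on wild-type arrays 1 and 2 and -0.45 and -0.51 on labelled fft3Δ arrays 1 and 2. The stretch was not flat: it held 35 local maxima, the tallest of which reached 0.73, just under the threshold, and 24.9% of its windows were above 0.

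Just before it, no peak lay between 1858201 and 2258701, 400.5 kb, the fourth longest spacing. The mean level was -0.40 and -0.45 in wild type and -0.35 and -0.39 in labelled fft3Δ. Its tallest of 31 local maxima, at 2208001, reached 0.73 as well. Peaks at 2258701 and 2267101, in an early block of 52 kb, stand alone between these 2 stretches. The third longest stretch on the arm, 1253101 to 1421101 (168 kb), had a mean near the arm's own, -0.11 and -0.07 in wild type and -0.12 and -0.11 in labelled fft3Δ, and 45.7% of its windows above 0. Its tallest local maximum reached 0.695, and it held 2 late blocks, from 1290001 (-0.67) and from 1328001 (-0.56).

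Very low DNA came in short runs. On the mean of the 4 arrays 105 windows were below -1, in 26 runs that covered 210 kb, 9 of them a single window and 11 of them at least 10 kb long. The 2 long peak-free stretches held 18 of the runs and 146 kb of their length. The longest run, 2540001 to 2562000, covered 22 kb with a mean of -1.21.

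**Figure D4:**
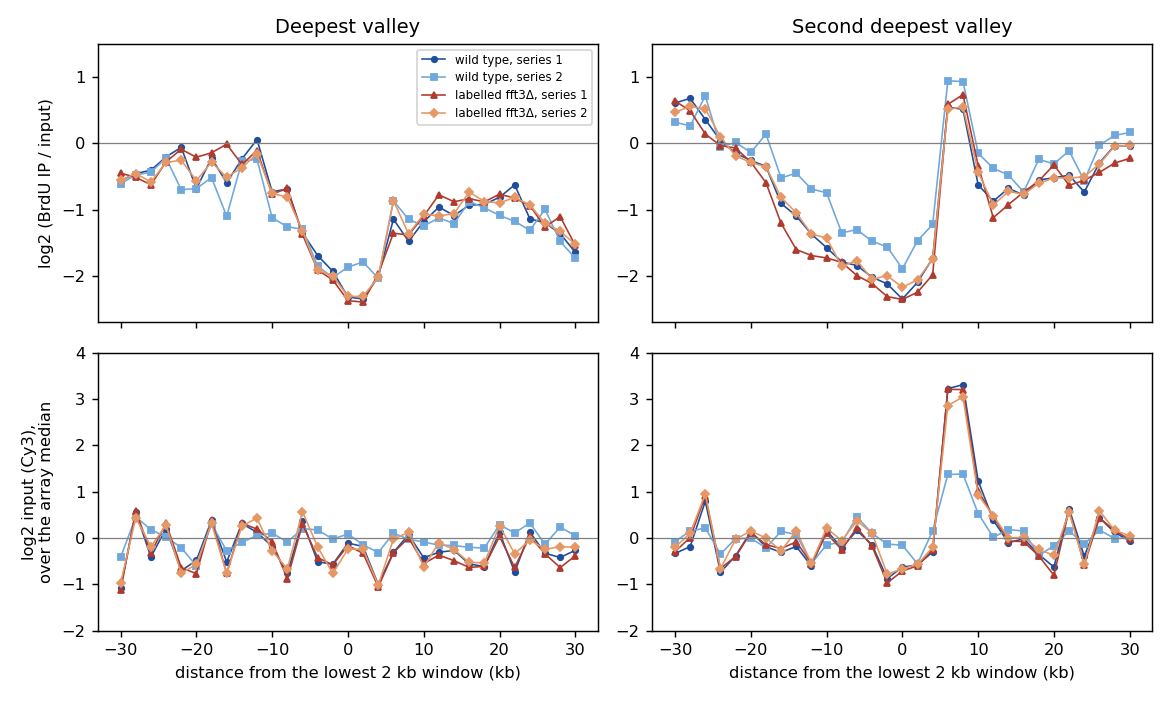
Log2 ratio of BrdU-immunoprecipitated over input DNA (top) and log2 input signal over the array median (bottom) in windows of 2 kb (y axes), against the distance from the lowest window of the deepest valley and of the second deepest valley (x axes, kb), with 1 line per array. Both valleys fall below -1.8 on all 4 arrays, and the second ends beside 2 windows whose input rises to between 1.37 and 3.31.

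The deepest valley of the arm lies in the lowest late block. Its lowest window, 2658001 to 2660000, had -2.32 and -1.87 on wild-type arrays 1 and 2 and -2.37 and -2.31 on labelled fft3Δ arrays 1 and 2. The window beside it, from 2660001, had -2.35 and -1.79 in wild type and -2.40 and -2.31 in labelled fft3Δ. The run below -1 around it was 18 kb long on the mean of the 4 arrays, and on single arrays 18 and 16 kb in wild type and 18 and 12 kb in labelled fft3Δ. The input across that run was close to the array median, at -0.23. Another long run below -1, 2682001 to 2702000, lies 12 kb beyond it with a mean of -1.39, and a single window from 2672001 lies between them at -1.06.

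The second deepest valley is of the same depth but stands alone between early blocks. Its lowest window, 3356001 to 3358000, had -2.35 and -1.89 on wild-type arrays 1 and 2 and -2.36 and -2.17 on labelled fft3Δ arrays 1 and 2. The run below -1 was 20 and 14 kb long in wild type and 22 and 20 kb in labelled fft3Δ. Its mean over 3342001 to 3362000 was -1.80 and -1.22 in wild type and -1.98 and -1.75 in labelled fft3Δ. Wild-type array 2, the array whose input stood apart, was the shallowest in both valleys.

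Steps are places where the ratio changes abruptly along the DNA, measured as the mean of the 5 windows (10 kb) to the right minus the mean of the 5 to the left. The arm had 64 upward and 67 downward local extremes, with median sizes of 0.51 and -0.53. Of these, 5 rose by more than 1 and 4 dropped by more than 1. All 67 downward steps and 59 of the 64 upward ones kept their sign on all 4 arrays.

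The largest step was the upward one at 3362000, the end of the second deepest valley, with 1.84 and 1.70 on wild-type arrays 1 and 2 and 1.99 and 1.80 on labelled fft3Δ arrays 1 and 2. The groups overlapped, since labelled fft3Δ array 2 lay under wild-type array 1. To its right, the windows from 3362001 and 3364001 had a ratio of 0.53, 0.94, 0.66 and 0.53 as their mean on wild-type arrays 1 and 2 and labelled fft3Δ arrays 1 and 2. Their input was far above the median, for the first of them 3.22 and 1.37 in wild type and 3.21 and 2.86 in labelled fft3Δ. Without these 2 windows, on the 3 that remain to the right, the step was 1.34 and 1.19 in wild type and 1.41 and 1.31 in labelled fft3Δ. With loess normalization it was 1.06 on the mean of the arrays. The 2 windows carry the only peak in a late block, at 3364201, and whether their sequence occurs more than once in the genome was not tested.

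The same valley opened with a drop at 3340000, of -1.28 and -0.89 in wild type and -1.44 and -1.26 in labelled fft3Δ. The deepest valley opened with the largest drop of the arm, at 2652000, of -1.49 and -0.97 in wild type and -1.65 and -1.45 in labelled fft3Δ. Both drops were smallest on wild-type array 2. The deepest valley closed with an upward step at 2664000 of 0.94 on the mean of the 4 arrays, after which the ratio stayed low, with a mean of -1.12 over the next 10 kb.

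A narrow notch near the telomere side was bounded by a pair of steps 14 kb apart. The ratio changed at 854000 by -1.34 and -1.03 on wild-type arrays 1 and 2 and -1.35 and -1.18 on labelled fft3Δ arrays 1 and 2. It rose at 868000 by 1.39 and 1.13 in wild type and by 1.44 and 1.22 in labelled fft3Δ. The level was 0.27 before the notch and 0.32 after it, and input in the 10 kb on its inner sides was -0.54 and -0.475. With loess normalization both steps were smaller, at -0.78 and 0.90.

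Further along the arm, 2 more notches ended sharply. At 2328000 the ratio rose by 1.52 and 0.75 in wild type and by 1.34 and 1.22 in labelled fft3Δ, out of a run below -1 that covered 12 kb. At 2902000 it rose by 1.42 and 0.99 in wild type and by 1.32 and 1.22 in labelled fft3Δ, again out of a run of 12 kb. The drop at 2510000, of -1.14 and -0.96 in wild type and -1.04 and -1.09 in labelled fft3Δ, opened a broad low stretch that ended with a rise at 2568000 of 1.07 on the mean of the 4 arrays. Among the 4 largest steps each way, all but the drop at 2510000 were at least as steep on labelled fft3Δ array 1 as on labelled fft3Δ array 2. Wild-type array 1 was steeper than wild-type array 2 in all 8 of them.

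No difference between genotypes was shown in the size of the change at any window boundary of the arm. In limma over all 6115 window boundaries of the 3 chromosomes, 0 of 1451 boundaries of the arm passed an adjusted p of 0.05 (0% of all boundaries did), with a lowest adjusted p of 0.957. At an unadjusted p of 0.05, 13 were higher in labelled fft3Δ (0.896%, against 0.981% of all) and 14 lower (0.965%, against 1.03% of all). Without wild-type array 1 the count was 83 of 1451 (5.72%, against 5.51% of all boundaries), and without wild-type array 2 it was 1 (0.0689%, against 0.0818% of all), at 3582000, with -0.03 and -0.46 in wild type and -0.68 and -0.64 in labelled fft3Δ.

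**Figure D5:**
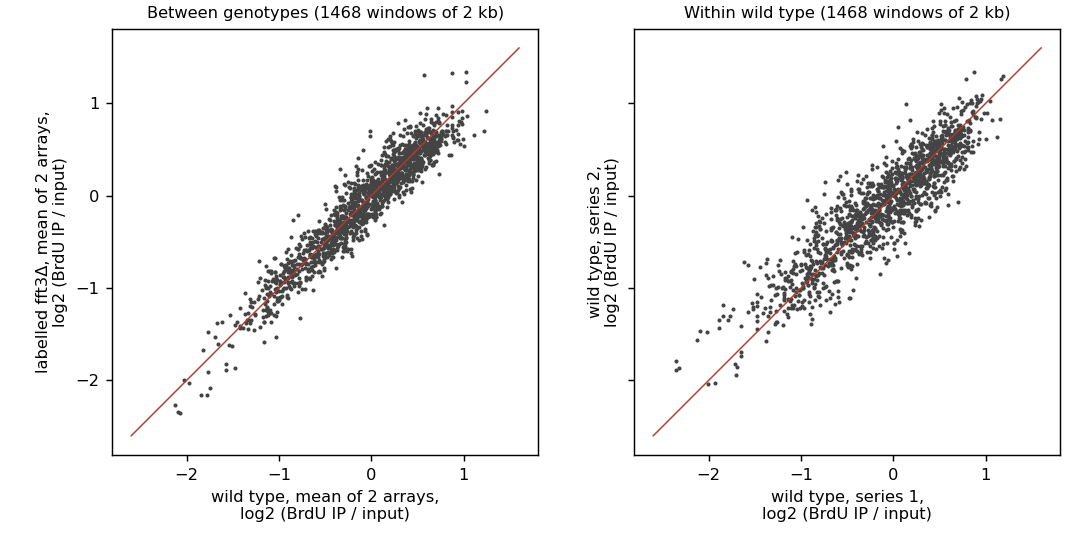
Log2 ratio of BrdU-immunoprecipitated over input DNA in each of the 1468 windows of the arm, with the mean of the 2 labelled fft3Δ arrays against the mean of the 2 wild-type arrays (left) and wild-type array 2 against wild-type array 1 (right). The red line marks equal values. Points scatter around the line in both panels, with an SD of the difference of 0.18 on the left and 0.26 on the right. The left panel shows means of 2 arrays and the right panel single arrays, so the widths are not comparable.

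Window by window, the genotypes were close. The difference, labelled fft3Δ minus wild type, had a median of -0.016 over the arm and ran from -0.55 to 0.74, with 14 windows beyond 0.5 in size. Its SD over windows was 0.18. The difference between single arrays had an SD of 0.26 within wild type and 0.20 within labelled fft3Δ, and 0.21 and 0.23 between the genotypes in series 1 and series 2. The SDs between genotypes within a series thus lay between those of the 2 same-genotype pairs. Those pairs also cross the series and the scanner, so they do not measure the noise within a series.

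In limma, 0 of the 1468 windows passed an adjusted p of 0.05, as did 0% of the 6266 windows in all, and the lowest adjusted p on the arm was 0.892. At an unadjusted p of 0.05, 33 were higher in labelled fft3Δ (2.25%, against 3.32% of all windows) and 11 lower (0.749%, against 0.878%). The groups did not overlap in 206 windows that were higher (14%, against 15.2%) and 310 that were lower (21.1%, against 19.1%). These shares are near those of the whole array. The median SE of a window's difference was 0.14, and the number of arrays limits what a single window can show.

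With the series as a block, which is also the scanner, 9 windows of the arm passed, 8 higher in labelled fft3Δ (0.545%, against 1.24% of all windows) and 1 lower (0.0681%, against 0.0958% of all). The 8 started at 1664001, 2194001, 2304001, 2642001, 2718001, 3144001, 3184001 and 3576001 and had differences between 0.55 and 0.74. In 7 of them wild-type array 2 was the lowest of the 4 arrays, and in the last, 3576001, wild-type array 1 was, with 0.14 against 0.998 on wild-type array 2 and 1.31 on both labelled fft3Δ arrays. The 1 that was lower, from 3342001, is the edge of the second deepest valley, with -1.10 and -0.45 in wild type and -1.60 and -1.05 in labelled fft3Δ. The labels do not say that a series number marks a shared culture or day, so both fits are given.

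Away from peaks, by more than 5 kb, the 3 largest positive differences by moderated t did not pass (adjusted p = 0.892 each, limma). The window from 2140001, in the longest late block, had -1.15 and -1.28 on wild-type arrays 1 and 2 and -0.67 and -0.74 on labelled fft3Δ arrays 1 and 2. The window from 2194001 had -0.12 and -0.56 in wild type and 0.44 and 0.14 in labelled fft3Δ, and its adjusted p was 0.024 with the series as a block. The window from 1028001 had -0.26 and -0.54 in wild type and 0.04 and 0.17 in labelled fft3Δ. In none of the 3 did the groups overlap. Their differences were 0.51, 0.63 and 0.50, and 0.04, 0.12 and 0.25 with the Cy5 signal alone. Without wild-type array 2 the last 2 were 0.41 and 0.36.

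The 3 largest negative differences away from peaks by moderated t did not pass (adjusted p = 0.892 each, limma). The window from 1698001 had 0.59 and 0.73 in wild type and 0.33 and 0.35 in labelled fft3Δ, a difference of -0.32 that was 0.05 with the Cy5 signal alone. The window from 3036001 had 0.27 and 0.59 in wild type and -0.08 and 0.16 in labelled fft3Δ, a difference of -0.39, or -0.22 without wild-type array 2. The window from 2944001 had 0.58 and 0.89 in wild type and -0.09 and 0.56 in labelled fft3Δ, a difference of -0.50, or -0.18 without labelled fft3Δ array 1. The groups did not overlap in these windows either, and in the last of them labelled fft3Δ array 1 alone was low. By size, the largest negative difference away from peaks was the -0.55 of the window from 3342001, at the edge of the second deepest valley.

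The highest windows of the arm sit at 2 places. Those from 3578001 and 3580001, at the second tallest peak, had 0.96 and 1.09 and then 0.79 and 1.27 on wild-type arrays 1 and 2, and 1.22 and 1.45 and then 1.23 and 1.23 on labelled fft3Δ arrays 1 and 2. The window from 3300001 had 0.86 and 0.88 in wild type and 1.34 and 1.33 in labelled fft3Δ, so that arrays of a group lay close together. It differed by 0.46 between genotypes, with an adjusted p of 0.892 in limma. The input at the window from 3300001 was 1.24 and -0.01 on wild-type arrays 1 and 2 and 0.99 and 1.02 on labelled fft3Δ arrays 1 and 2.

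The input signal itself varied along the arm and moved weakly with the ratio on 3 of the 4 arrays, wild-type array 2 being the exception. Over the arm's windows the ratio correlated with the input of the same array at r = 0.25 and -0.02 on wild-type arrays 1 and 2 and at 0.27 and 0.29 on labelled fft3Δ arrays 1 and 2. It correlated with the Cy5 signal at 0.81 and 0.90 in wild type and at 0.81 and 0.82 in labelled fft3Δ. These are descriptions, since the ratio is made from both signals. Input above 1.5 on the mean of the 4 arrays was found in 4 windows of the arm, starting at 1154001, 1466001, 3362001 and 3364001, and at 3 of the 65 peaks. Of these peaks, those at 1469401 and 2929801 rested on 1 and 2 probes. Input within early blocks was 0.08 and -0.08 in wild type and 0.10 in both labelled arrays, and within late blocks -0.18 and 0.01 in wild type and -0.23 and -0.14 in labelled fft3Δ. The difference in input between early and late blocks was thus small beside the difference in ratio, and its part in the ratio was not tested.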

How the data were processed

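BrdU-immunoprecipitated (Cy5) and input (Cy3) DNA of 2 wild-type and 2 labelled fft3Δ samples were read on 2-colour Agilent arrays, all in 1 dye orientation with no swap, so dye bias does not cancel. Sonication left fragments of 500 to 1000 bp, amplified from random primers, per the labels' protocols. Spots were read with Agilent Feature Extraction, per the submitters' processing notes, in version 12.0 on 3 arrays and 11.5 on wild-type array 2, per the file headers. The deposited intensity values are processed signals, background-subtracted and dye-normalized by that software per the file headers. The deposited log10 ratio column was used only to check direction. The authors' series matrix holds the linear ratio of these signals, not centred, used as an alternative. The deposited flags (unit other) mark non-uniform, saturated and dim spots.

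Probes with a non-uniformity flag on any array were left out. The log2 ratio of the deposited signals was shifted so that each array's median probe is 0, without loess or quantile normalization. Windows, peaks and steps of all chromosomes were fitted with limma 3.58.1 (lmFit and eBayes) in R 4.3.3 and adjusted by Benjamini-Hochberg over all of them at 0.05. Single values were compared by exact permutation tests. The steps of the fit were tested on simulated data. Python 3.11.15 with pandas 2.3.3, numpy 2.4.6 and matplotlib 3.10.9, and the R package data.table (version 1.17.8), were used. Precision is limited by the number of arrays.

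The arm, the lists, the thresholds and the rule for named items were chosen with earlier results of these data known. The rule names the 6 tallest peaks, the 4 largest rises and 4 largest falls of peaks by moderated t with the same sign in both series, the 3 lowest and 3 highest windows, the 3 largest rises and falls of windows over 5 kb from a peak, the 4 longest early and late blocks, the 4 largest steps each way, the 3 longest stretches without a peak, the 2 local maxima on each side of the peak threshold, and the 3 highest and lowest bins. Items outside it, among them the windows and peaks called only with the block, the runs below -1, the rise at 2568000, the late block from 3336001 and the windows of high input, were chosen after their values were seen.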

Additional observations from a re-analysis of the deposited data

How the results depend on the processing

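With 2 arrays a group, tests of single values cannot pass and give no measure of stability. No arm window, peak or step passed under loess normalization, the Cy5 signal alone, normexp background correction, centring on the mode, omission of dim probes, the series matrix ratio, other window sizes, flanks or smoothing. With the series number as a replicate block 9 windows and 1 peak passed and no step did. Leaving out 1 array gave 0 windows, 0 to 2 peaks (at 1076401 and 1469401, the latter on 1 probe, both without wild-type array 1) and 0 to 83 steps; the cause was not tested. Arrays of the same series deviated together (r = 0.37 over arm windows), but with 2 pairs this does not establish pairing.

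Small differences changed sign with the setting, and the cause was not tested. The Cy5 SD over arm windows was 0.93 and 0.63 on wild-type arrays 1 and 2 and 0.93 and 0.89 in labelled fft3Δ. The arm mean difference (-0.0069) was 0.020 with Cy5 alone, 0.0016 in series 1, -0.095 with centring on the mode and -0.053 with normexp, and ran from -0.014 to 0.00024 with 1 array left out. The median peak difference (-0.131) was 0.27 with Cy5 alone, 0.083 at 2 background SDs, -0.306 with normexp and -0.219 with the mode, and ran from -0.142 to -0.120. The early minus late difference (-0.016) was 0.022 with loess, 0.18 with Cy5 alone, -0.116 with normexp, -0.042 with a running mean over 21 windows, -0.059 in series 1 and 0.026 in series 2, and ran from -0.058 to 0.026. The difference in spread (-0.004) was 0.016 with loess, 0.14 with Cy5 alone, -0.056 with normexp, 0.0044 with 4 kb windows, -0.013 in series 1 and 0.0048 in series 2, and ran from -0.026 to 0.018. The left minus right arm mean (0.003) was -0.0094 with Cy5 alone, -0.0028 with normexp and -0.0058 in series 2, and ran from -0.0033 to 0.015. Differences of named items that turned were, with Cy5 alone, 0.142 at 1076401, 0.165 at 962101, 0.091 at 3307501 and 0.052 at the window from 1698001, and with normexp -0.0094 at 3300001 and -0.019 at 1725001. Signal over background was lowest in series 1 (Cy3 17.0 and 17.7 times), and what this does to the ratios was not tested. Choices on high-input windows and on peaks with few probes were made after seeing the data and moved no count of calls.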
